A study of Mus musculus with 93 samples.

Results

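The direct contrast between docosahexaenoic acid (C22:6) and eicosapentaenoic acid (C20:5) in livers of PPARα −/− mice was made on 9 of the 93 arrays of the series, 1 array per mouse, with no control array in the difference. Its members are the 5 arrays labelled as C22:6 and the 4 labelled as C20:5 in the PPARα knockout at 6 h, chosen by these labels alone. All 9 mice were male, of the strain given as 129S4/SvJae (PPARα-null), with an age label of 8 to 24 weeks. After a fast of 4 h they received 400 µl of tridocosahexaenoin or trieicosapentaenoin, triglycerides built from a single fatty acid, by gavage, and the liver was taken 6 h later. The doses were equal in volume, not in moles, and the time was the same. Control mice of the same genotype (5 arrays), which received carboxymethyl cellulose, have a narrower age label of 12 to 20 weeks, and they enter below only as a reference. In WT mice, labelled as strain 129S1/SvImJ and as 8 to 24 weeks of age, the same triglycerides were given to 5 mice each. The labelled strains differ with the genotype, so receptor and strain cannot be told apart. In bulk liver RNA, fewer cells of a type and less RNA per cell cannot be told apart either.

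Both are long-chain omega-3 fatty acids of fish oil. C22:6 has 22 carbons and 6 double bonds, and C20:5 has 20 carbons and 5. PPARα is the nuclear receptor through which fatty acids switch on oxidation genes in hepatocytes. Polyunsaturated fatty acids also act on the liver by routes that do not need this receptor, among them the lowering of SREBP-1, the transcription factor of lipogenesis, and of the carbohydrate-responsive factor ChREBP, as well as oxidative stress responses that work through NRF2. In mice without PPARα these other routes are what can be compared. The array had 3 probesets for Ppara. One of them separated the genotypes, with log2 signals of 5.94 to 7.41 in the 9 livers and of at least 8.10 in WT livers. The remaining probesets overlapped between genotypes when all PPARα −/− arrays were used, although one of them did not for these 9 livers (at most 10.29, against at least 10.34 in WT), and Ppara did not pass the test between the fatty acids (log2 difference -0.06, adjusted p = 0.885).

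The C22:6 livers were not uniform, and this bears on every count that follows. Each C20:5 array correlated with the others of its group at a mean r of 0.976 to 0.979 over 11412 probesets. Among the C22:6 arrays the range was 0.932 to 0.952. Their standard deviation was on average 1.28 times the pooled value, the highest of the 20 groups, against 0.707 to 1.09 in the other 19. C22:6 replicates 2 and 5 lay farthest from their group, and their array weights of 0.269 and 0.323 were among the 3 lowest of the 93. The median signal ran from 138 to 145 over the 9 arrays, so their overall brightness was similar. The log2 difference without these 2 livers is given for each called gene described below whose size then changed by more than 1.5 times.

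With the spread estimated from all 93 arrays, 228 of 6661 genes differed between C22:6 and C20:5 at an adjusted p under 0.05 (3.42%; limma, Benjamini-Hochberg). Of these, 81 were higher with C22:6 (1.22%) and 147 were lower (2.21%). The sizes ran from 0.24 to 2.39 on the log2 scale, with a median of 0.64. The groups did not overlap in 97 of the 228. Over all 6661 genes they did not overlap in 1.2% with C22:6 higher and in 3.18% with C22:6 lower. By the rule for named genes (below), the rises were led by Hmox1, Pdk4 and Klf6, and the falls by Cyp2d12, Pklr and Acss2. Larger than Klf6 but outside this rule were Chka (2.36, called in 8 of the 9 fits without 1 array), Fst (2.17) and Slpi (2.02). Without C22:6 replicates 2 and 5 Chka was at 1.26 and Fst at 0.58, and neither was called. Phlda1 (-1.60) was outside it among the falls. In probesets the count was 335 of 11412 (2.94%), and 933 (8.18%) passed the study's unadjusted threshold of 0.01, at which 114 are expected without any difference. The median over all genes was -0.04, so the genes as a whole were centred close to 0.

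The count of calls depends strongly on how the spread is estimated. A fit of the 9 arrays alone called 0 probesets, with 265 at an unadjusted p under 0.01 and a smallest adjusted p of 0.364. A fit of the first-run PPARα −/− arrays also called 0, with 587 at the unadjusted threshold, and array weights left 8. First run here means the 56 arrays with a mean signal of 465 to 479, which include these 9 and their controls. The other 37 arrays were at 577 to 598 and include the controls titled control2. The labels name no run, and the pooled spread uses both sets. Without C22:6 replicate 2 no probeset was called, with 451 at the unadjusted threshold. Without replicate 3, 23 were called, and without replicate 5, 455. Without replicate 1 or 4 of C22:6 the count was 763 or 678, and without any 1 of the 4 C20:5 arrays it was 92 to 129. Leaving out both replicates 2 and 5, an alternative chosen after seeing the data, left 19. Replicate 2 held the most extreme C22:6 value in 151 of the 228 genes (66.2%), replicate 5 in 35 and replicate 3 in 29. The direction was more stable than the call: all 228 genes kept their sign in each of the 9 fits without 1 array, in the 9-array fit and without both livers. Since these genes were selected on the same arrays, a kept sign is no independent check. The adjusted p-values below all use the spread pooled over the 93 arrays.

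**Figure D1:**
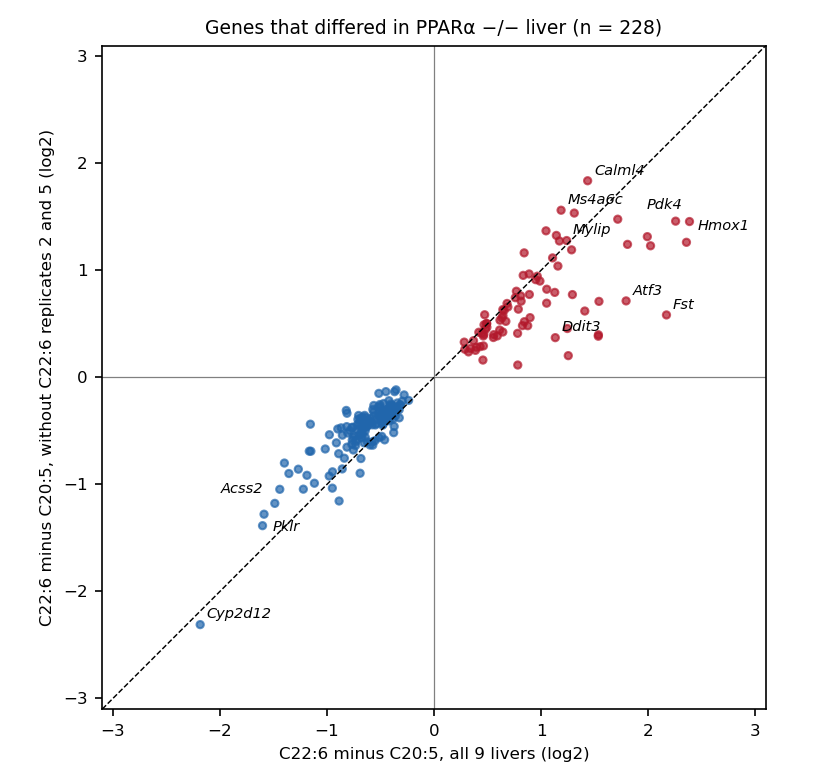
Each point is 1 of the 228 genes that differed between C22:6 and C20:5 in PPARα −/− liver (red higher, blue lower with C22:6). The x axis gives the log2 difference over all 9 livers and the y axis the same without C22:6 replicates 2 and 5; the dashed line marks equality. All points keep their sign, while Atf3, Fst and Ddit3 lie far below the line and Calml4 and Ms4a6c above it.

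Of the 228 genes, 10 were called again without replicates 2 and 5. Those higher with C22:6 were Mylip, Calml4, Ms4a6c and Serpinb6a, and those lower were Cyp2d13, Ccdc117, Ldhd, Tapt1, Dhrs3 and Aggf1. With array weights 5 were called: Mylip, Slpi, Cyp2d13, Ldhd and Plpp3. Slpi, at 2.02 over all 9 livers, was at 1.23 without replicates 2 and 5. Mylip, Cyp2d13 and Ldhd passed in both. Slpi, Serpinb6a, Ms4a6c, Cyp2d13, Ccdc117, Ldhd, Tapt1, Aggf1 and Plpp3 fall outside the rule for named genes and were chosen after their values were seen.

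Promoter sequence was available from RefSeq (GRCm38.p6) for 64 of the 81 genes higher and 116 of the 147 lower with C22:6, and the 250 bases before the start were searched on both strands. The NF-Y box CCAAT, a common promoter element, was in 32.8% of the former, in 40.5% of the latter, in 36% of the 5475 promoters of measured genes and in 34.5% of all 27025 promoters. The E-box CACGTG, which ChREBP, USF and MYC proteins can bind, was in 10.9%, 6.90%, 9.17% and 6.05%, so that the share among falls lay below that of measured genes and above that of all promoters. The sterol response element TCACNCCAC was in 0%, 2.59%, 1.11% and 1.04%. The heat shock element GAANNTTC was in 4.69%, 4.31%, 5.19% and 6.78%, and the antioxidant response element TGACNNNGC in 14.1%, 6.90%, 12.3% and 10.1%. No promoter of a called gene held the amino acid response element TGATGNAAT or the direct repeats of the nuclear receptor half-site named DR1 and DR4, which 0.825%, 0.0370% and 0.0111% of all promoters held. These shares were not tested, and a match is a string of letters, not a shown site. The Klf6 promoter, a rise, also held 1 E-box and 1 antioxidant response element, left in lower case below. Shown are Mylip, the most stable rise (chr13:45389492-45389741, plus strand), and Klf6, the early response factor (chr13:5861239-5861488, plus strand), with their 3 and 4 NF-Y boxes in capitals, and Khk, the fructose kinase that fell (chr5:30921309-30921558, plus strand), with its 1 E-box in capitals.
Mylip: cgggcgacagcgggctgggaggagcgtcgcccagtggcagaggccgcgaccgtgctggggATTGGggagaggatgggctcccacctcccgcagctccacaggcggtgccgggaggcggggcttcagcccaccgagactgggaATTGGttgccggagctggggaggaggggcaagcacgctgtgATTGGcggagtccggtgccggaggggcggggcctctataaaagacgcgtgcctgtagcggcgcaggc
Klf6: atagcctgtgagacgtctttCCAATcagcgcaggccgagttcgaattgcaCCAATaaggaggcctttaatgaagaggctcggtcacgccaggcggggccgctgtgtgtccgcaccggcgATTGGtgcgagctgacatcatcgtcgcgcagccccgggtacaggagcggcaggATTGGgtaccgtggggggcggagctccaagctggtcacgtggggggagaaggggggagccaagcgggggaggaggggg
Khk: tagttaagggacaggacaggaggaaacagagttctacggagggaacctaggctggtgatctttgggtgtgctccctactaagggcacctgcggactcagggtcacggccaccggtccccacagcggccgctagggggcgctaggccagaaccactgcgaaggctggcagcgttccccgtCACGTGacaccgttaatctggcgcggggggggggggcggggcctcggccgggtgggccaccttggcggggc

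Hmox1, which encodes the heme-degrading enzyme heme oxygenase 1 and is a classical NRF2 target, had the widest rise. Its log2 signals were 6.38, 9.65, 7.41, 6.49 and 8.52 in the 5 C22:6 livers and 5.43, 5.99, 4.67 and 5.12 in the 4 C20:5 livers. The groups did not overlap, and replicates 2 and 5 of C22:6 were highest. The log2 difference was 2.39 ± 0.59 (SE; adjusted p = 0.0235), or 1.46 without these 2 livers. C20:5 lay 0.20 from the controls, and C22:6 2.59 above them. Pdk4, the kinase that shuts the pyruvate dehydrogenase complex and spares glucose, had signals of 5.89, 9.03, 5.71, 6.55 and 7.07 with C22:6. With C20:5 they were 4.77, 4.61, 4.43 and 4.56, below every control liver (5.59 to 6.73). The difference of 2.26 ± 0.65 (adjusted p = 0.0407) therefore combined a value of 0.88 against the controls with C22:6 and of -1.38 with C20:5. It was 1.46 without replicates 2 and 5. Pdk4 is a PPARα target in WT liver, and its difference there was 1.57 (95% interval 0.36 to 2.79).

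Klf6, a transcription factor induced early after injury, gave signals of 4.88, 8.20, 7.11, 5.14 and 6.62 with C22:6 and of 4.00 to 4.65 with C20:5. Its difference was 1.99 ± 0.51 (adjusted p = 0.0237), and all 4 of its probesets were called in the same direction. Without replicates 2 and 5 it was 1.31. Tubb2a, a β-tubulin, followed with 1.81 ± 0.48 and Calml4, a calmodulin-like protein, with 1.44 ± 0.39. In Tubb2a the groups met at their edges, since C22:6 replicate 1 and the highest C20:5 liver were both at 7.27. Calml4 was high in 1 liver, replicate 3 at 7.98, while the other C22:6 livers lay between 5.16 and 5.82 and the C20:5 livers between 4.12 and 5.15.

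Mylip, the ubiquitin ligase (also called IDOL) that degrades the LDL receptor and is induced by the sterol sensor LXR, was the most stable rise. Signals were 7.26, 7.53, 6.95, 7.40 and 6.69 with C22:6 and 5.98, 6.05, 5.51 and 6.17 with C20:5. Every C22:6 liver lay above every C20:5 liver, with no outlying array. The difference was 1.24 ± 0.23 (adjusted p = 0.00643), it was called in 8 of the 9 fits without 1 array, and it stood at 1.28 without replicates 2 and 5 (adjusted p = 0.0399). With array weights it was called as well (adjusted p = 0.0463). Against the controls Mylip was at 0.49 with C22:6 and at -0.75 with C20:5, neither of them past the threshold. Of 11 measured LXR and sterol export genes, Mylip was the 1 that was called, and the median was -0.07 (0.07 without replicates 2 and 5).

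Among the remaining rises without overlap were Nt5c2, a cytosolic nucleotidase (1.16), Ctps2, which makes CTP (0.89), and Acsl4 (0.67), the acyl-CoA synthetase that prefers long polyunsaturated fatty acids. Acsl4 had signals of 9.26 to 9.99 with C22:6 and 8.43 to 9.12 with C20:5. Baiap2l1, an organiser of actin at the membrane, rose by 0.95 ± 0.21 with a narrow spread, from 7.46 to 7.94 against 6.57 to 6.91, and both of its probesets were called. Other rises without overlap were measured for Ehd3, an endosome protein (0.81), Cttnbp2nl (0.66), the transcriptional repressor partner Nab1 (0.64), the water channel Aqp1 (0.64) and Tm6sf1 (1.29). Ehd3, Nab1 and Aqp1 resemble Pdk4 in position: against the controls C22:6 was at 0.23, 0.25 and 0.27 and C20:5 at -0.58, -0.39 and -0.38.

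**Figure D2:**
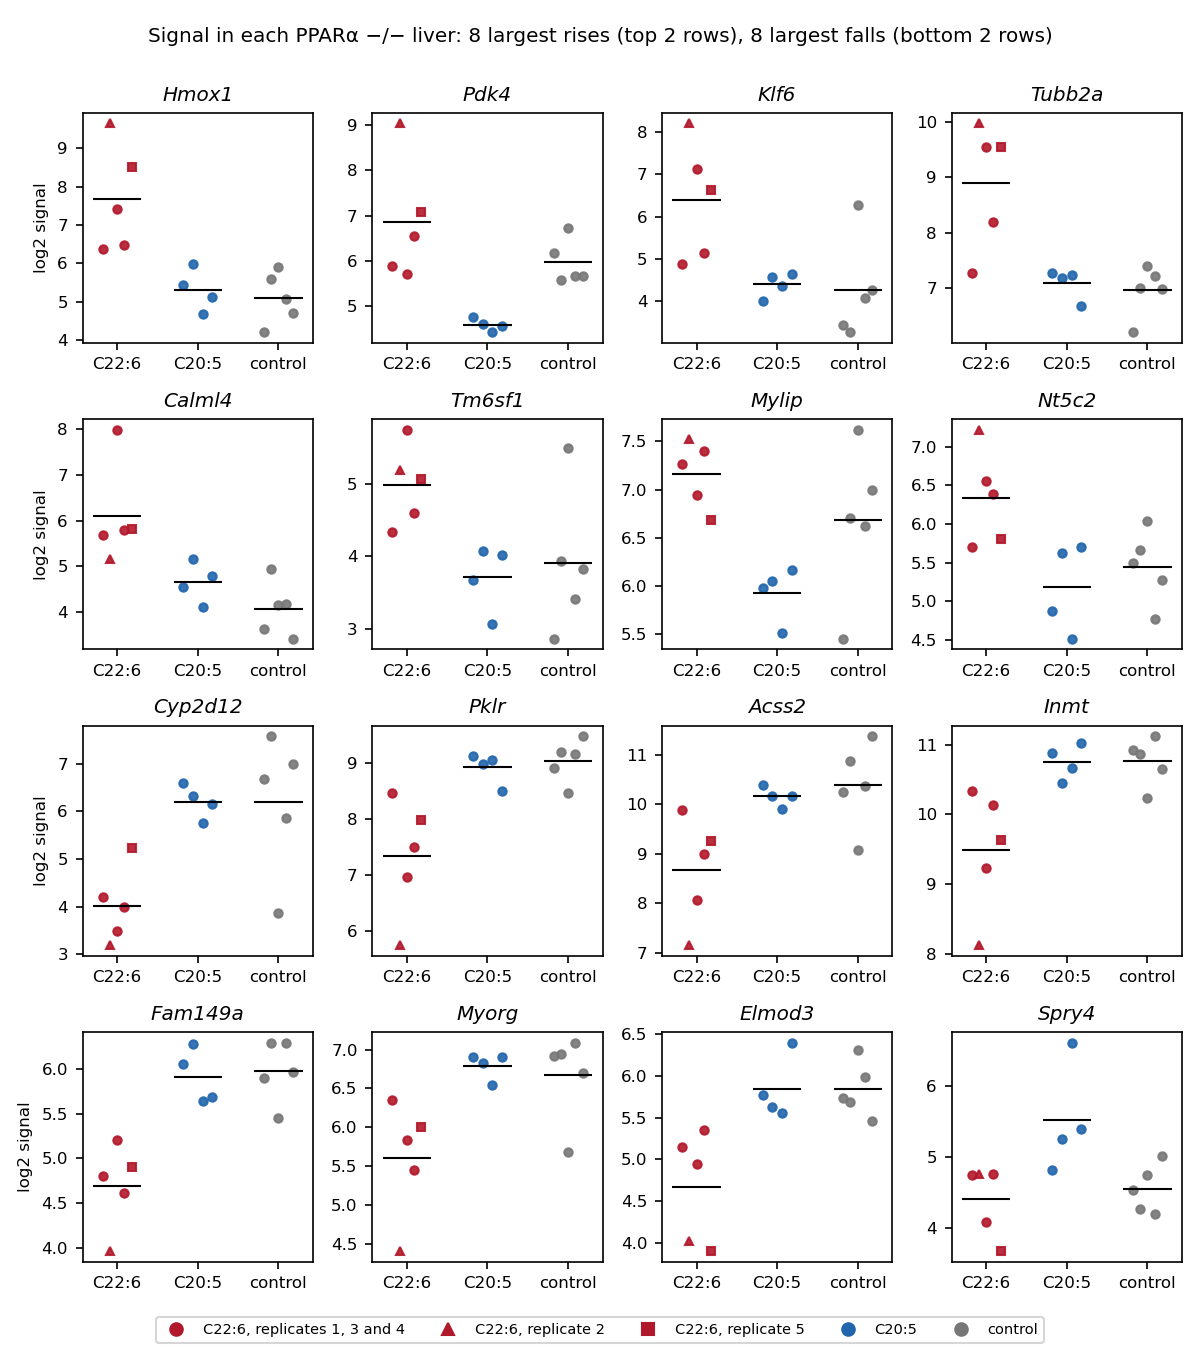
Log2 signal (y axis) of single PPARα −/− livers for the 8 largest rises and the 8 largest falls with C22:6 against C20:5 among genes called without overlap. Black bars are group means; triangles and squares are C22:6 replicates 2 and 5. For Hmox1 the C22:6 livers lie between 6.38 and 9.65 and the C20:5 livers between 4.67 and 5.99.

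The falls were led by Cyp2d12, a cytochrome P450, at a log2 difference of -2.19 ± 0.58 (adjusted p = 0.0293). Its signals were 4.2, 3.19, 3.49, 4.00 and 5.22 with C22:6 and 6.60, 6.32, 5.75 and 6.15 with C20:5, and all C22:6 livers were lower. Of the C22:6 values 4 lay under 4.95, the level below which the lowest 10% of all signals fall, so the size is uncertain and the gene's place by size with it. The C22:6 means of Fam149a, Elmod3, Spry4 and Fn3k and the C20:5 means of Pdk4, Klf6, Calml4, Tm6sf1, Atf3, Ddit3 and Il1rn were also under this level. The value for Cyp2d12 was -2.31 without replicates 2 and 5. Related Cyp2d genes share sequence, so signal may be split between them. Pklr, the liver pyruvate kinase at the end of glycolysis and a ChREBP target, had signals of 8.47, 5.74, 6.95, 7.49 and 7.98 with C22:6. With C20:5 they were 9.12, 8.98, 9.06 and 8.50, close to the controls (8.46 to 9.47). Pklr fell by 1.59 ± 0.44 on the log2 scale (adjusted p = 0.0343), all 3 of its probesets were called, and it fell by 1.28 without replicates 2 and 5.

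Acss2, which turns acetate into acetyl-CoA for lipogenesis and is an SREBP target, fell by 1.49 ± 0.41 (adjusted p = 0.0341) in both of its probesets. The C22:6 livers read 9.88, 7.15, 8.07, 9.0 and 9.27 and the C20:5 livers 10.39, 10.18, 9.91 and 10.18. Replicate 2 was lowest here, as it was for Pklr. Khk, the fructose kinase, fell by 0.84 ± 0.19 (adjusted p = 0.0181), from 10.90 to 11.18 with C20:5 down to 9.58 to 10.90 with C22:6. Inmt, an indolethylamine methyltransferase, fell by 1.27 ± 0.25 (adjusted p = 0.0131), and Fn3k, which removes fructosamines from proteins, by 1.02 ± 0.24. Without replicates 2 and 5 the value for Fn3k was -0.67.

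The 15 falls named by size among the 72 called without overlap also included Fam149a (-1.22), the glycosidase-like Myorg (-1.19), Elmod3 (-1.17), the ERK inhibitor Spry4 (-1.12), the protease gene Cela1 (-0.89), the asparaginase Aspg (-0.81), Plekhg6 (-0.81), the nucleotide pyrophosphatase Enpp3 (-0.79) and Rhobtb3 (-0.76). Spry4 differed in position: C22:6 was at -0.15 against the controls and C20:5 at 0.97, which did not pass the threshold. The C20:5 signals of Spry4 ran from 4.82 to 6.62. In WT liver Spry4 gave -1.07 (95% interval -1.70 to -0.43), close to its value here. Without replicates 2 and 5 of C22:6 the values were -0.69 for Elmod3, -0.52 for Plekhg6 and -0.50 for Enpp3. For the 8 genes other than Spry4 the C20:5 mean was between -0.26 and 0.15 from the controls.

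Over all 228 genes, C22:6 stood farther from the PPARα −/− controls than C20:5 in 208. The genes were selected on the same C22:6 and C20:5 arrays, the C22:6 group had the wider spread and the comparisons share the control arrays, so this count is no separate evidence and the values are set side by side only. The genes higher with C22:6 had a median of 0.73 against controls with C22:6 and of -0.06 with C20:5. Those lower with C22:6 had medians of -0.54 and 0.01. Against the controls 179 of the 228 were also called with C22:6 and 0 with C20:5, where 15.7% and 0.03% of all genes were called. In C20:5 livers the 2 called genes, named after their values were seen, were Slc25a20, the carnitine-acylcarnitine carrier, at 0.66, and G6pc, the catalytic subunit of glucose-6-phosphatase, at -1.79. Neither passed the test between the fatty acids (0.16 and 0.71).

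Of the lists with at least 8 measured genes, lipogenesis had the lowest median. Of 26 measured genes of SREBP-1 and lipogenic enzymes, 23 were lower with C22:6. Pklr and Acss2, 2 of the 26, were called (2.21% of all genes were called lower). An unadjusted p under 0.01 was reached by 8 (6.02% of all genes did so with C22:6 lower). The list median was -0.41 beside -0.04 over all genes. Srebf1 itself read 6.36, 5.13, 6.27, 6.22 and 4.63 with C22:6 and 6.61, 7.02, 6.37 and 6.76 with C20:5. Its difference of -0.97 did not pass the test (adjusted p = 0.167), although the groups did not overlap. Against the controls Srebf1 was at -2.33 with C22:6 and at -1.37 with C20:5. Fasn, fatty acid synthase, was at -0.97 (adjusted p = 0.125) with overlapping groups. Acaca, the first committed enzyme, was at -0.85 (adjusted p = 0.0736), with 5.95 to 6.82 against 7.08 to 7.56. Averaged over the 26 genes, every C22:6 liver (7.30 to 8.18) lay below every C20:5 liver (8.29 to 8.46), while the controls spanned 8.03 to 9.14. Such a separation was not particular to lipogenesis. With C22:6 higher, list means also separated for mitochondrial oxidation (9.08 to 9.23 against 8.89 to 8.97) and for omega-oxidation (7.37 to 7.87 against 6.92 to 7.26). The same held for lipid uptake (8.63 to 8.94 against 8.50 to 8.56) and the integrated stress response (6.56 to 7.52 against 6.36 to 6.55). Without replicates 2 and 5 the lipogenic median was -0.327. Those of the unfolded protein response list (-0.345) and of the growth hormone dependent male-specific genes (-0.328) were then lower.

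Of 21 insulin-responsive and gluconeogenic genes, 3 fell and 0 rose: Pklr, Slc2a2 (the glucose transporter GLUT2, -0.87) and Pygl (liver glycogen phosphorylase, -0.58). The list median was 0.10. Over all genes 2.21% were called lower and 1.22% higher. Pklr is also counted among the lipogenic calls above. In Slc2a2 and Pygl replicate 2 was lowest, at 8.45 and 10.55, and the groups overlapped. Slc2a2 was at -0.47 without replicates 2 and 5. The list of cholesterol synthesis and uptake had a median of -0.07 over 21 genes. Its 1 call, Nudt18 (0.63), encodes a nucleotide hydrolase and not a protein of cholesterol synthesis or uptake. The other 20 genes did not pass.

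The share of calls among fatty acid oxidation genes was near that over all genes (3.42%). The 25 mitochondrial genes had a median of 0.01 and 1 rise (Pdk4), and the 22 peroxisomal genes a median of -0.12 and 1 fall, Pecr (-0.51), a peroxisomal enoyl-CoA reductase. Ehhadh, the bifunctional enzyme of peroxisomal oxidation and a PPARα target, was at -0.19 (95% interval -0.66 to 0.28) here and at 0.76 (0.31 to 1.22) in WT liver. The difference between genotypes for Ehhadh had an adjusted p of 0.330. Omega-oxidation and other PPAR target genes had a median of 0.44, with 18 of 22 positive and 1 called (Pdk4). Acot1, a cytosolic acyl-CoA thioesterase, was at 0.59 (interval -0.10 to 1.29), Cd36, a fatty acid transporter, at 0.46 (-0.15 to 1.06), and Cyp4a14 at 0.42 with log2 signals of only 1.61 to 2.72. Txnip, the thioredoxin-binding protein, was at 0.88 without overlap but missed the threshold (adjusted p = 0.0628), as did the phosphatidate phosphatase Lpin2 at 0.69 (adjusted p = 0.0678). Acot3, a peroxisomal thioesterase, was at -1.17 (adjusted p = 0.398), and the pantetheinase Vnn1 at -0.23. Respiratory chain subunits (44 genes, median -0.10) and proteasome subunits (31 genes, median -0.00) had no call.

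**Figure D3:**
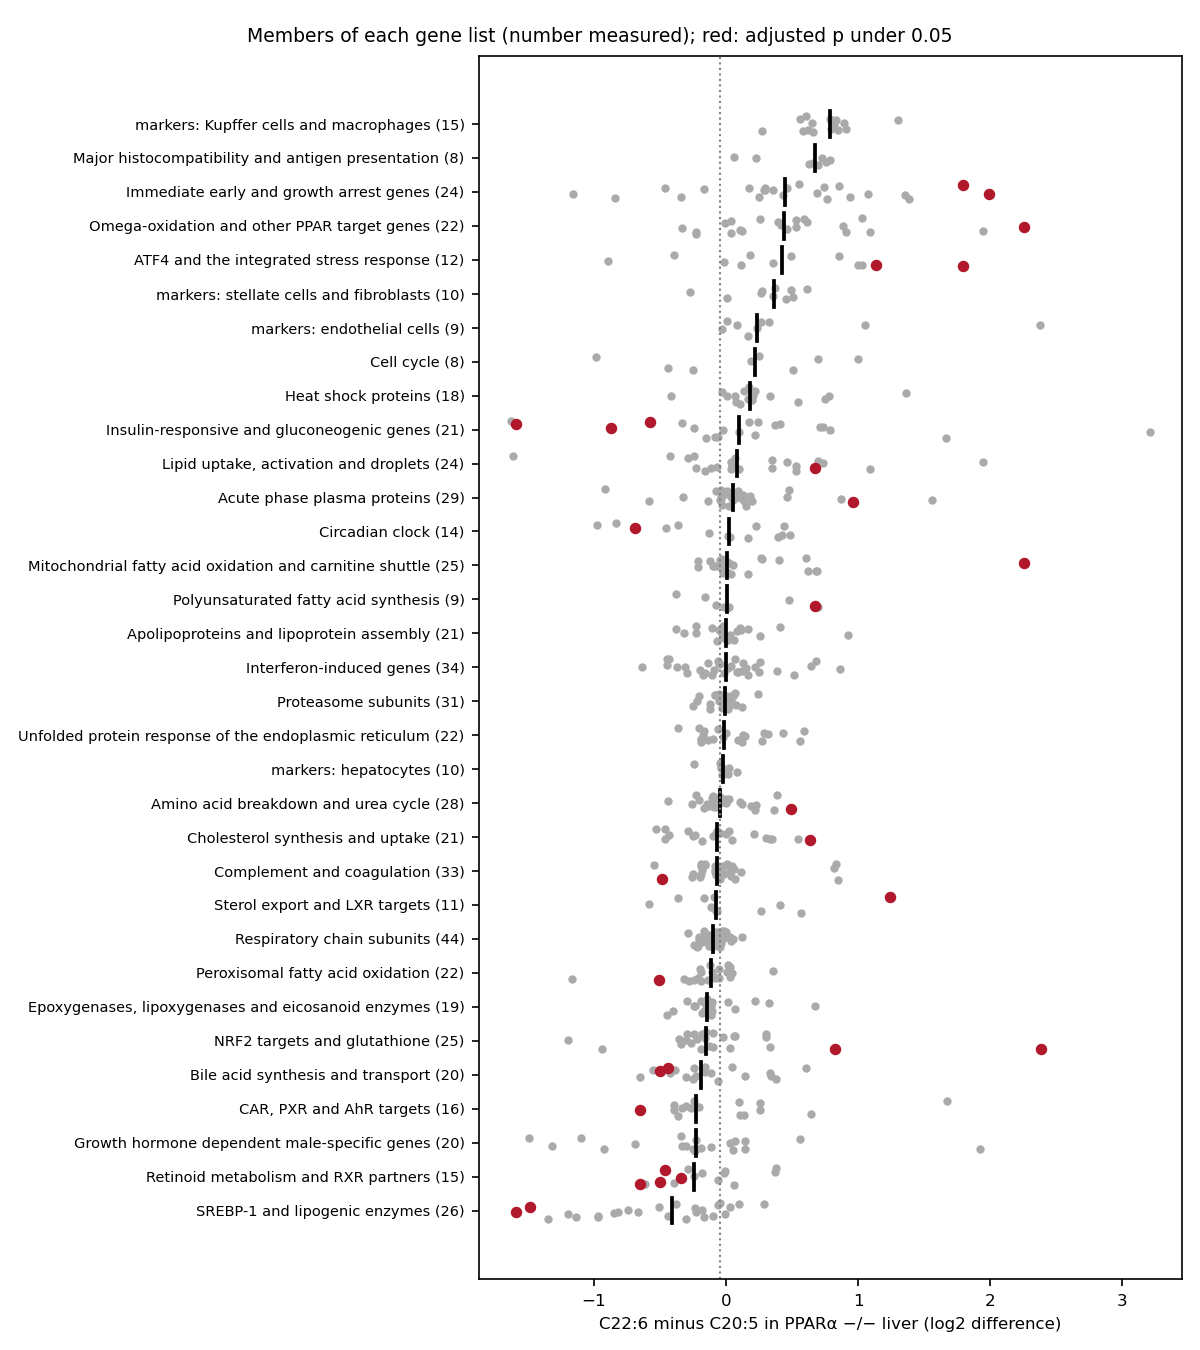
Log2 difference between C22:6 and C20:5 in PPARα −/− liver (x axis) for each measured member of the lists with at least 8 measured genes (rows, number measured in brackets). Red points passed an adjusted p of 0.05, black bars are list medians, and the dotted line is the median of all genes at -0.04. Lipogenic genes lie lowest (median -0.41) and Kupffer cell markers highest (0.79).

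Of the remaining metabolic and plasma protein lists, Acsl4 was the call among 24 genes of lipid uptake and droplets and among 9 of polyunsaturated fatty acid synthesis, Il1rn (0.96), the interleukin-1 receptor antagonist, among 29 acute phase genes, and Aldh1a1 (-0.65) among 16 targets of CAR, PXR and AhR. None was called among 20 growth hormone dependent male-specific genes (median -0.23), 19 of eicosanoid enzymes (-0.15), 34 interferon-induced genes, 21 of lipoprotein assembly, 8 of the cell cycle, 7 of metallothioneins and zinc transport and 4 of ketone synthesis. Over all genes 3.42% were called.

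The rises in the stress lists stand beside 1.22% of all genes called higher. Of 24 immediate early and growth arrest genes 2 rose (Klf6 and Atf3), with a median of 0.45, which was 0.21 without replicates 2 and 5. Of 12 genes of the integrated stress response 2 rose, the transcription factors Atf3 (1.79) and Ddit3 (1.13, also called CHOP), with a median of 0.42 that became 0.12. Without replicates 2 and 5 Atf3 was at 0.71 and Ddit3 at 0.37. Atf3 read 2.11, 4.84, 4.18, 2.86 and 6.67 with C22:6 and 1.99 to 2.62 with C20:5, and replicate 1 was inside the C20:5 range. NRF2 targets and glutathione genes did not shift together. Hmox1 and Srxn1 (0.83, or 0.48 without replicates 2 and 5, which encodes sulfiredoxin) rose, 17 of 25 members were negative, and the median was -0.15. Among 18 heat shock proteins none was called, at an unadjusted p under 0.01 also none, and the median was 0.18, which turned to -0.11 without replicates 2 and 5. Hspa1a, which encodes the inducible HSP70, was at 8.54 in C22:6 replicate 5 and between 1.68 and 2.44 in the other C22:6 livers. In the unfolded protein response list none of 22 was called (1 at an unadjusted p under 0.01), and its largest member, Herpud1, was at 0.59 (adjusted p = 0.0759). The median of that list was -0.01, or -0.35 without replicates 2 and 5.

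Of 15 measured genes of retinoid metabolism and RXR partners 4 fell, beside 2.21% of all genes, and 3 of these calls were lost without C22:6 replicates 2 and 5. Aldh1a1, which makes retinoic acid, fell by 0.65 ± 0.16 (adjusted p = 0.0235) with signals of 10.37 to 11.85 against 11.67 to 12.11, and its value was -0.36 without these livers (adjusted p = 0.399). Nr1h4, the bile acid receptor FXR, fell by 0.50 ± 0.13 (adjusted p = 0.0280) and its groups did not overlap, although C22:6 replicate 1 at 9.30 came close to the lowest C20:5 liver at 9.32. Without replicates 2 and 5 Nr1h4 was at -0.27 (adjusted p = 0.473). Dhrs3, which reduces retinaldehyde, fell by 0.46, and by 0.58 without replicates 2 and 5, where it was still called (adjusted p = 0.0410). Rxra, the shared dimer partner of PPARα, LXR and FXR, fell by 0.34, and was at -0.24 without them (adjusted p = 0.335). Of the 20 bile acid genes 2 fell, Nr1h4 and Hsd3b7 (-0.44), and of the 14 clock genes 1, Hlf (-0.69, or -0.38 without these livers). The clotting factor F7 (-0.49) was the call among 33 complement and coagulation genes, and Cth, of cysteine synthesis, the call among 28 genes of amino acid breakdown (0.49).

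Markers of other cell types are given beside these results. All 15 measured Kupffer cell and macrophage markers were higher with C22:6, none passed the adjusted threshold, 5 passed an unadjusted p of 0.01 (3.24% of all genes did so with C22:6 higher), and the median was 0.79. The summed linear signal of the 15 was 3916 to 7801 with C22:6, 2240 to 4244 with C20:5 and 881 to 5224 in the controls. Cd68, a lysosomal macrophage protein, was at 1.30 (adjusted p = 0.0883), with 7.39 in replicate 3 and 4.60 to 5.32 in the other C22:6 livers. The highest list means were those of C22:6 replicates 3 and 4, not of 2 and 5, and the median was 1.04 without the latter. The 8 genes of antigen presentation were all positive (median 0.68, none called, none at an unadjusted p of 0.01). Called genes outside the list that macrophages express include Fcgr3 (1.14), Ms4a6c (1.19) and Mrc1 (0.47), chosen after their values were seen. Hepatocyte markers were level, with a median of -0.02 over 10 genes and sums of 104400 to 112600 against 102500 to 112200. The 3 neutrophil and monocyte genes had a median of 1.71, with S100a8 at 1.8 (adjusted p = 0.171). Medians were 0.19 over 3 lymphocyte and 0.36 over 10 stellate cell and fibroblast markers, with no call. Of 9 endothelial markers 8 were higher and 1 lower with C22:6, with a median of 0.23 and no call. The largest was at 2.38, and 2 passed an unadjusted p of 0.01. The endothelial list mean was 6.27 to 6.64 with C22:6, 5.75 to 6.21 with C20:5 and 5.85 to 6.72 in the controls. Of the lists with a single measured marker, those named for pancreas (Cela1) and for fat and muscle (Car3, -0.62) fell, and that for red blood cells was at -0.53. In the controls Car3 read 12.70 to 12.98, near the hepatocyte marker mean of 13.12 to 13.22, and Cela1 read 6.98 to 8.88. Whether the falls of Car3 and Cela1 mark other tissue was not tested. The single bile duct marker was below 4.95, within the lowest 10% of signals, in all 9 livers. The part of these cell types in the other differences was not tested.

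**Figure D4:**
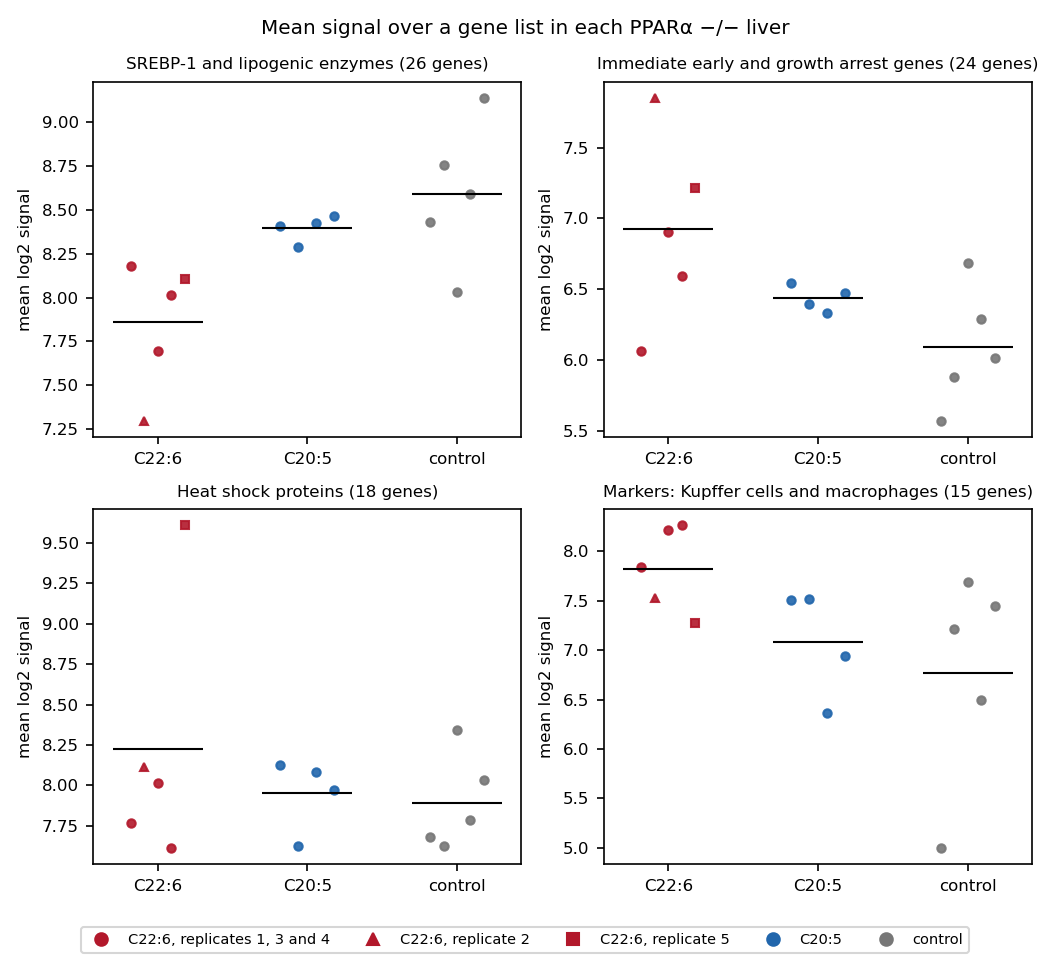
Mean log2 signal over the measured genes of 4 lists (y axis) in each PPARα −/− liver given C22:6, C20:5 or the control; black bars are group means, and triangles and squares are C22:6 replicates 2 and 5. The lipogenic mean is lower in all 5 C22:6 livers than in all 4 C20:5 livers, the heat shock mean is high in replicate 5 alone, and the Kupffer cell mean is highest in replicates 3 and 4.

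In WT liver the same pair of triglycerides differed in 4 probesets (0.0351%), beside 335 in PPARα −/− liver. The 4, named after their values were seen, were those of Acot2, a mitochondrial thioesterase (1.54), Abhd6, a monoacylglycerol lipase (1.36), Alpl, alkaline phosphatase (1.17), and Ppp1r14a (-1.66). None of the 228 genes was called in WT liver, where 0.03% of genes were. Their WT medians were 0.04 for those higher and -0.10 for those lower in PPARα −/− liver, where the medians were 0.83 and -0.59. The signs matched in 48 of 81 and in 112 of 147. The difference between genotypes was tested directly and no probeset passed (0%), with 317 (2.78%) at an unadjusted p under 0.01, so the unequal counts do not show that a gene responded differently. Array weights turned the counts around, to 8 in PPARα −/− and 187 in WT liver. For Hmox1 the WT difference was -0.02 (95% interval -1.12 to 1.09), for Mylip 0.31 (-0.13 to 0.75) and for Pklr -0.53 (-1.36 to 0.30). The interval for Hmox1 leaves out its estimate in PPARα −/− liver, while the adjusted p for its difference between genotypes was 0.330.

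**Figure D5:**
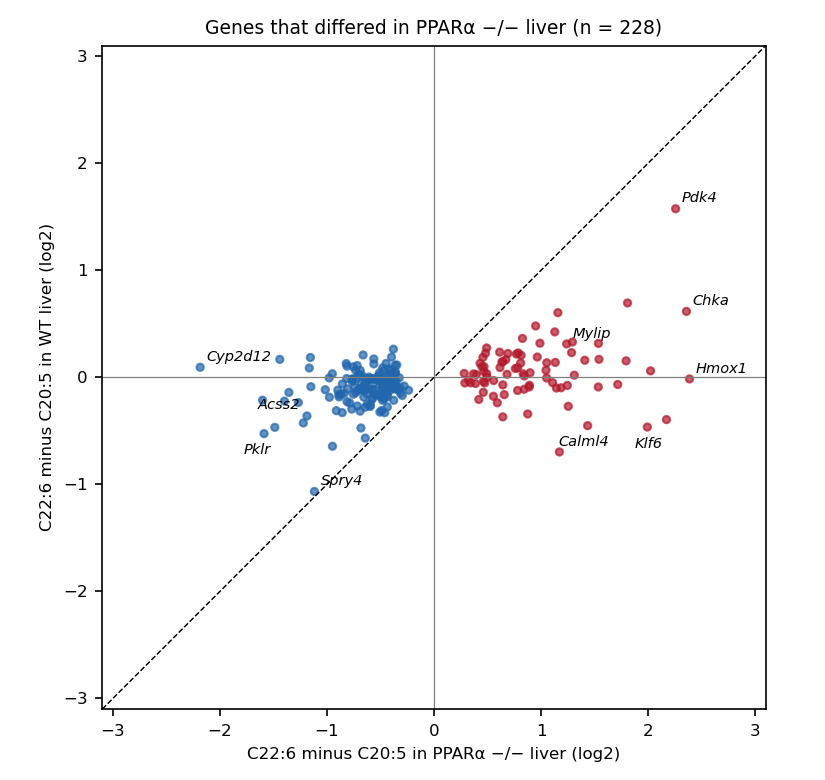
Log2 difference between C22:6 and C20:5 in PPARα −/− liver (x axis) and in WT liver (y axis) for the 228 genes that differed in the former; the dashed line marks equal values. Most points lie near 0 on the y axis, and Pdk4 and Spry4 lie nearest to the line among the genes labelled. Hmox1 and Cyp2d12 lie close to 0 in WT liver. For Cyp2d12 the log2 signals in the WT C22:6 and C20:5 livers were only 2.63 to 3.40. All were under the low-signal level of 4.95, so the WT value of Cyp2d12 cannot show whether it fell there.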

How the data were processed

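Liver RNA of single mice was hybridised to Affymetrix mouse genome arrays. The authors deposited probeset intensity values on a linear scale, made with GCRMA 2.20 and normalised between arrays, after removing probesets of low variation. Mean signals still differed between the first-run arrays and the others. Of 11463 probesets, 51 control probesets were left out. The log2 of the deposited intensity was tested in limma (3.58.1, R 4.3.3) with 1 mean for each of 20 groups over 93 arrays (73 residual degrees of freedom). A call is a Benjamini-Hochberg adjusted p under 0.05 over 11412 probesets. Groups came from the sample labels, and p-values measure the spread between mice. A gene is a single symbol (10279 probesets had 1, 406 several and 727 none) and takes the probeset with the highest mean over all arrays (6661 genes). Probesets can match related genes, and 886 of these carry such a suffix (_s or _x). The number of arrays limits the precision; errors are SE or 95% intervals.

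Named are the 15 largest rises and falls among called genes without overlap, up to 3 called members per list (otherwise the largest), and 15 genes named by the study or earlier work; exceptions are stated. Genes in the lowest 10% of signals in both groups were left out of the first. The members and the 41 lists (635 genes measured) were chosen with earlier results of these data known. The lists were described by counts and medians without a set test. Alternatives were the arrays of the groups compared or of the first run, an inter-quartile range of at least 0.5, a log2 value of at least 5 in at least 3 arrays, an intensity trend, array weights, quantile normalisation, median centring, a replicate block, another probeset rule and leaving out each array. The labels do not say whether replicate numbers pair the livers. Deviations of same-numbered C22:6 and C20:5 arrays correlated at -0.11, 0.20, -0.22 and 0.38 in PPARα −/− mice. In WT mice the values were 0.06, 0.34, 0.21, 0.02 and 0.33. PPARα −/− C20:5 had no replicate 5, so that number could not be compared there. Replicate 5 had the lowest array weight of the WT C20:5 (0.437) and WT C22:6 (0.408) groups. In PPARα −/− C22:6 it was at 0.323, and replicate 2 was lower at 0.269. What the numbers stand for was not tested. Figures used matplotlib 3.10.9.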

Additional observations from a re-analysis of the deposited data

Results flagged for a closer look

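In the groups of 4 and 5 livers, an array was marked where its gap to the nearest other array of its group exceeded Dixon's 95% critical value. Of 92 such groups over the called genes named here, 9 were marked, where chance marks about 1 in 20. The C22:6 livers so marked were replicate 3 for Calml4 (7.98 beside 5.16 to 5.82), replicate 2 for Car3 (11.56 beside 12.25 to 12.50), which encodes carbonic anhydrase 3, and replicate 5 for Dhrs3 (9.10 beside 8.18 to 8.42). In the C20:5 group they were replicate 2 for Acsl4 (8.43 beside 9.02 to 9.12) and replicate 3 for Cttnbp2nl (5.002 beside 5.425 to 5.501). Replicate 4 of C20:5 was marked for Cth (11.93 beside 11.64 to 11.68), Plekhg6 (6.13 beside 5.60 to 5.68), Rhobtb3 (6.14 beside 5.75 to 5.78) and Tubb2a (6.69 beside 7.18 to 7.27).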

How the results depend on the processing

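Counts are probesets with an adjusted p under 0.05. For C22:6 against C20:5 in PPARα −/− liver, 335 became 0 with the arrays of the groups compared, 0 with the first-run arrays of the genotype, 222 with an inter-quartile range of at least 0.5, 8 with array weights, 0 with the replicate block (369 at an unadjusted p under 0.01), 19 without replicates 2 and 5 (added after seeing the data), and 0 (C22:6 replicate 2) to 763 (C22:6 replicate 1) without 1 array. A log2 value of at least 5, an intensity trend, quantile normalisation and median centring gave 288 to 462. In WT liver, 4 became 1 with the groups compared, 187 with array weights, 1 with the replicate block and 1 (C22:6 replicate 1) to 17 (C22:6 replicate 3) without 1 array. The difference between genotypes gave 0, and 0 to 22 without 1 array, with 22 without PPARα −/− C22:6 replicate 1. For C22:6 against controls, 1604 became 0 with the groups compared, 903 with the first-run arrays, 0 with the replicate block, 237 without replicates 2 and 5, and 446 (C22:6 replicate 2) to 2112 (C22:6 replicate 1) without 1 array. For C20:5 against controls, 7 became 4 with the groups compared, 2 with the first-run arrays, 3 with the replicate block, and 2 (C20:5 replicate 2 or 3) to 9 (control replicate 1) without 1 array. The labels do not say whether replicate numbers pair the livers. No named gene that was called changed sign under these alternatives. Of 778 list medians under alternatives, 14 moved by more than the spread between livers. At an unadjusted p under 0.01 the promoters of genes higher and lower held the NF-Y box in 36.8% and 41.7%. The cause of these changes was not tested.

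Precision is limited by 5 and 4 livers and by the unequal spread of the C22:6 group, which the pooled fit treats as equal to that of the other groups.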
